A study of Homo sapiens with 4 samples.

Results

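The translation initiation and elongation factors examined here are 42 human genes: the subunits and regulators of eIF2, eIF3, eIF4F and the elongation and termination factors of the cytosolic ribosome. A gene was measured through every probe set to which the platform annotation assigns that gene's symbol alone, and its brightest such probe set stood for the gene in summaries. By this rule 38 of the 42 genes were measured, with 109 of the 54613 probe sets on the array. EIF4A1 and EEF1G (3 probe sets each) and EEF1B2 (1 probe set) appeared in the annotation only on probe sets shared with other genes, no probe set of the annotation named EIF4G3, and no value is given for these 4 genes.

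The cells were Raji, an established Burkitt lymphoma line, a germinal-centre type B-cell tumour in which MYC is driven by an immunoglobulin gene enhancer. RNA of a clone with DLEU1, a long non-coding RNA gene, downregulated by means of TALENs was hybridised to 2 Affymetrix HG-U133 Plus 2.0 arrays, and RNA of a wild-type control clone to 2 more. TALENs are engineered nucleases whose DNA-binding part directs the cut to a selected sequence. All 4 samples came from cells grown in RPMI medium with fetal bovine serum. The label on TALEN treatment is worded alike for all 4 samples, so the labels do not settle whether the control clone was also exposed to the nucleases. Each genotype is 1 clone, so an effect of DLEU1 and a difference between any pair of clones cannot be told apart. Nothing given says that the duplicates came from separate cultures, and the p-values below therefore measure only the spread between arrays, which may be technical. As deposited, that spread was pooled over probe sets of like intensity, and a gene's own spread carried no weight.

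The targeted gene was lower in the clone labelled as downregulated. DLEU1 read 524 and 617 intensity units in the DLEU1-downregulated clone, against 1363 and 1024 in the control clone. The groups did not overlap, and the mean was 2.09-fold lower (570 ± 65.9 against 1194 ± 240, SD, n = 2 arrays each, limma adjusted p = 3.20e-04). The call was lost when either array of the DLEU1-downregulated clone was left out (adjusted p = 0.218 without its replicate 1 and 0.140 without its replicate 2), but not after quantile normalization. An exact permutation test of this value gave p = 0.333, the smallest p that 2 arrays against 2 allow, and the same holds for every gene taken alone. The defining B-cell markers fitted the label: 7 of 8 listed markers had a probe set and all 7 stood above 100 intensity units on all 4 arrays, while none of 5 T-cell and none of 4 myeloid markers stood above its array's median on all arrays. Of 4 stromal markers 1 did (COL1A1, at 111 and 84.7 in the DLEU1-downregulated clone and 90.2 and 121 in the control clone), and so did the erythroid marker HBB, at 54.7 and 51.5 in the DLEU1-downregulated clone and 53.8 and 44.3 in the control clone. No marker of these 4 other cell types stood above 100 on all arrays. Germinal-centre markers (3 of 4 with a probe set) summed to 2608 and 2912 in the DLEU1-downregulated clone, against 6799 and 5128 in the control clone, and the part of this difference in the results was not tested. Correlations of log2 intensity were taken over all probe sets other than control probe sets, dim ones included. They were 0.989 within the DLEU1-downregulated clone and 0.986 within the control clone, against 0.970 to 0.971 between clones. The median intensity was 18.7 and 20 on the arrays of the DLEU1-downregulated clone and 22.6 and 18.4 on those of the control clone. The 2% trimmed mean was 172 and 197 in the DLEU1-downregulated clone and 163 and 131 in the control clone, so the arrays do not share a common scale. For this reason each difference is given as deposited and again after quantile normalization, which forces the 4 arrays to the same distribution. Over all genes the median difference was 0.19 as deposited and -0.0091 after quantile normalization, in log2 units of the DLEU1-downregulated minus the control clone.

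Translation begins when the eIF2 complex brings initiator tRNA to the small ribosomal subunit and eIF3, the largest of the initiation factors, holds the assembly together. The cap-binding complex eIF4F (eIF4E, the scaffold eIF4G and the helicase eIF4A) recruits the mRNA, and the 4E-binding proteins block it by taking eIF4G's place on eIF4E until mTORC1 phosphorylates them. Elongation is then carried by eEF1, eEF2 and eIF5A, and release factors end it. MYC raises transcription of many of these genes, and Burkitt lymphoma cells are known for high rates of protein synthesis.

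Among the 38 measured genes, 16 were higher and 1 was lower in the DLEU1-downregulated clone on both scales, at an adjusted p of 0.05. The 16 were EIF2S1, EIF2B1, EIF2B3, EIF3B, EIF3I, EIF4A3, EIF4G1, EIF4EBP2, EIF5, EIF5B, EIF6, EEF1D, EEF2K, EIF5A, ETF1 and GSPT1. The gene that was lower was EIF4EBP1, the best studied 4E-binding protein. A further 10 genes fell only after quantile normalization (EIF1, EIF2S3, EIF3A, EIF3E, EIF3G, EIF3H, EIF3L, EIF3M, EIF4B and EIF4E). For 11 genes, among them EEF1A1, EEF2 and PABPC1, the brightest probe set was called on neither scale.

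These counts stand against a background in which much of the transcriptome differed between the clones. As deposited, 16 of 38 genes (42.1%) were called higher, against 20.3% of all 13284 genes tested, and 1 (2.63%) was called lower, against 5.74% of all genes. After quantile normalization 16 (42.1%) were called higher, against 20.7% of all genes, and 11 (28.9%) lower, against 20.6%. On both scales together the background was 19.2% higher and 5.38% lower, and 15.2% of all genes were lower after quantile normalization alone. Of the 38 genes, 27 lay in the brightest 10% of all genes, where calls were more frequent. As deposited, 11 of these 27 (40.7%) were higher and 0 were lower by limma, against 34.4% and 2.41% of all genes in that brightness class. After quantile normalization 11 were higher and 10 lower, against 33.3% and 31.6%. Read against genes of like brightness, the share called higher was close to the background. The median difference of these 27 was 0.37 as deposited and 0.0012 after quantile normalization, against 0.35 and 0.0081 for all genes of that brightness class. Over all 38 the medians were 0.36 and 0.0071. The SE of a gene's log2 difference ran from 0.129 to 0.312 as deposited and from 0.0284 to 0.25 after quantile normalization.

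The arrays of the clones did not overlap as deposited in 24 of the 38 genes, 21 of them higher (55.3%) and 3 lower (7.89%), against 43.3% and 17.8% of all genes. After quantile normalization 16 genes were higher without overlap (42.1%) and 14 lower (36.8%), against 34.1% and 35.9% of all genes. Counted by probe set, 40 of the 106 tested probe sets were called higher and 2 lower as deposited, against 17.2% and 5.11% of all probe sets. After quantile normalization 43 were higher and 22 lower, against 17.1% and 16.7%. Of 27 genes with several tested probe sets, 4 had calls in both directions after quantile normalization (EIF1, EIF3E, EIF3H and EIF3M). Among the called genes, the brightest probe sets of EIF3B, EIF5B, EEF1D and GSPT1 carry the suffix _x_at, which marks probes that can also match other sequences. On the brightest probe set without that suffix, EIF3B and GSPT1 remained called as deposited (1.19 and 0.73), while EIF5B (0.54, limma adjusted p = 0.0771) and EEF1D (0.33, adjusted p = 0.180) did not pass. After quantile normalization the same EIF5B probe set was called higher (0.20, adjusted p = 0.0294), and the EEF1D one turned to -0.03 (adjusted p = 0.648). On the mean of a gene's tested probe sets EIF4EBP2 (0.57, adjusted p = 0.0631) and EIF4G1 (0.56, adjusted p = 0.0792) did not pass either.

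**Figure D1:**
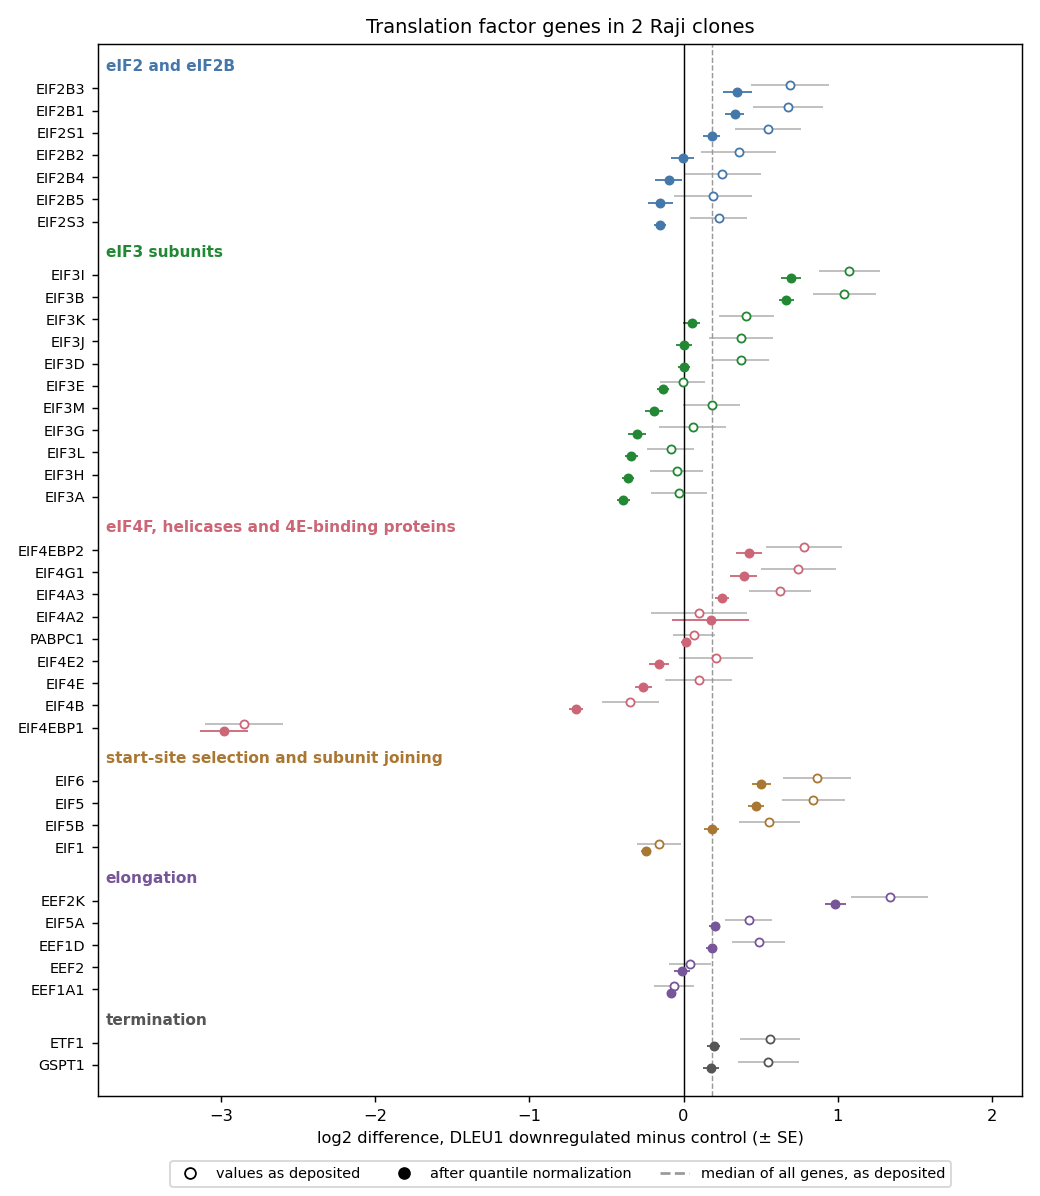
Log2 difference (DLEU1-downregulated minus control clone) of each of the 38 measured genes on its brightest probe set, grouped by role, as deposited (open circles) and after quantile normalization (filled), with bars of 1 SE and a dashed line at the deposited median of all genes. EIF4EBP1 stands alone at the low end near -3, EEF2K, EIF3I and EIF3B lie at the high end, and eIF3 subunits lie on both sides of 0 after quantile normalization.

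The calls differed in how far they rested on single arrays. As deposited, 4 of the 17 calls remained when replicate 1 of the DLEU1-downregulated clone was left out (EEF2K, EIF3B, EIF3I and EIF4EBP1), and 1 remained when its replicate 2 was left out (EIF4EBP1). Leaving out replicate 1 of the control clone kept 16 of the 17, all but EIF5A, and leaving out its replicate 2 kept 5 (EEF2K, EIF3B, EIF3I, EIF4EBP1 and EIF5). After quantile normalization 16 of 27 calls remained when replicate 1 of the DLEU1-downregulated clone was dropped and 23 when its replicate 2 was. Dropping replicate 1 of the control clone kept 20 of the 27, and dropping its replicate 2 kept 26. No gene called on a scale changed direction on that scale in these fits, in which the lone array of a clone is assumed to vary like the other clone's pair. Other settings of the test also removed calls made as deposited, and 8 of the 17 remained with no filter on dim probe sets and 10 with no intensity trend. The 15 genes called in all 4 leave-one-out fits after quantile normalization were EIF2B1, EIF3A, EIF3B, EIF3G, EIF3H, EIF3I, EIF3L, EIF4A3, EIF4B, EIF4EBP1, EEF2K, EIF5A, EIF1, EIF5 and EIF6.

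The start of these mRNAs is shown first, because many translation factor and ribosomal protein mRNAs begin with the terminal oligopyrimidine motif, a C at the cap followed by an unbroken run of C and T. Through it mTORC1 and the RNA-binding protein LARP1 control their translation and stability. RefSeq windows (GRCh38.p14) matched 34 of the 42 genes, 30 of them measured. A start with a C followed by at least 4 bases each C or T was found in 8 measured genes: EEF1A1, EEF2, EIF2S3, EIF3D, EIF3K, EIF3M, EIF4A2 and EIF4B. It was found in 5.14% of all genes with a window, tested or not. Among tested genes with a window the shares were 26.7% of the 30 members and 6.88% of all 10695. Below are 30 bases before and 20 bases from the annotated start of these 8 genes, with the pyrimidine run from the start in capitals. The windows lie at chr6:73521013-73521062 (minus strand, EEF1A1), chr19:3985444-3985493 (minus, EEF2), chrX:24054926-24054975 (plus, EIF2S3), chr22:36529147-36529196 (minus, EIF3D), chr19:38619158-38619207 (plus, EIF3K), chr11:32583801-32583850 (plus, EIF3M), chr3:186783547-186783596 (plus, EIF4A2) and chr12:53006426-53006475 (plus, EIF4B).
EEF1A1: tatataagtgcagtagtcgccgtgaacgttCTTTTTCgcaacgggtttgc
EEF2: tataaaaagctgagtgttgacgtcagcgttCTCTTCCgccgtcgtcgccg
EIF2S3: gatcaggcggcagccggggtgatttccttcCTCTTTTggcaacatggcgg
EIF3D: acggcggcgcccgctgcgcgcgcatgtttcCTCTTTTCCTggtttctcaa
EIF3K: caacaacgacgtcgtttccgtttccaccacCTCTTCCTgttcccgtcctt
EIF3M: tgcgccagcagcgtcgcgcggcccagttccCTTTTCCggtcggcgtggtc
EIF4A2: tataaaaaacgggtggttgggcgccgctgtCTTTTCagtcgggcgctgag
EIF4B: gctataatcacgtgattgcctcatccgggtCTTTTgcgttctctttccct

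For comparison, 4 of the 15 genes with a window that were called higher are shown in the same frame, 2 of eIF3 and 2 of the eIF2 group, and none has a pyrimidine at its annotated first base. Their windows lie at chr7:2354797-2354846 (plus, EIF3B), chr1:32222377-32222426 (plus, EIF3I), chr14:67360298-67360347 (plus, EIF2S1) and chr12:123633667-123633716 (minus, EIF2B1).
EIF3B: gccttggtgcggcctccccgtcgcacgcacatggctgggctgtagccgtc
EIF3I: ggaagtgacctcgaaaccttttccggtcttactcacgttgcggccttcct
EIF2S1: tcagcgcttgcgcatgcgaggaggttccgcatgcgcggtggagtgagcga
EIF2B1: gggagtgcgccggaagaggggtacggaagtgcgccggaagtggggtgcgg

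The grouping by start was made after the values had been seen, and it is given as a description with no test. Of the 8 measured genes with the pyrimidine start, 0 were called higher on either scale by limma and 3 (EIF2S3, EIF3M and EIF4B) were lower after quantile normalization. Their quantile-normalized differences ran from -0.70 for EIF4B to 0.18 for EIF4A2, with a median of -0.04. The EIF4A2 probe set lies near the dim limit and those of EEF1A1 and EEF2 close to the brightest values of the arrays. Whether these positions bear on the calls was not tested, and 2 other EEF1A1 probe sets of like brightness were called lower after quantile normalization. EIF3K, another of the 8, has 3 further probe sets that were called higher on both scales. Of the other 22 genes with a window, 15 were higher and 2 lower after quantile normalization, with a median difference of 0.20 and a range of -0.26 to 0.98. The measured genes without a window were EIF3A, EIF3E, EIF3G, EIF3H, EIF3L, EIF4EBP1, EEF1D and PABPC1. After quantile normalization EEF1D was called higher, PABPC1 had no call and the others were called lower. The comparison by start leaves these lower calls out. Over all genes tested, 736 of 10695 had such a start, and 20.1% of these were higher and 26.6% lower after quantile normalization, with a median of -0.05. Among the 9959 genes without it, 21.7% were higher and 20.7% lower, with a median of -0.0049. Annotated starts can miss the cap site by a few bases, and a window without the motif says only that these letters are not at that position.

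**Figure D2:**
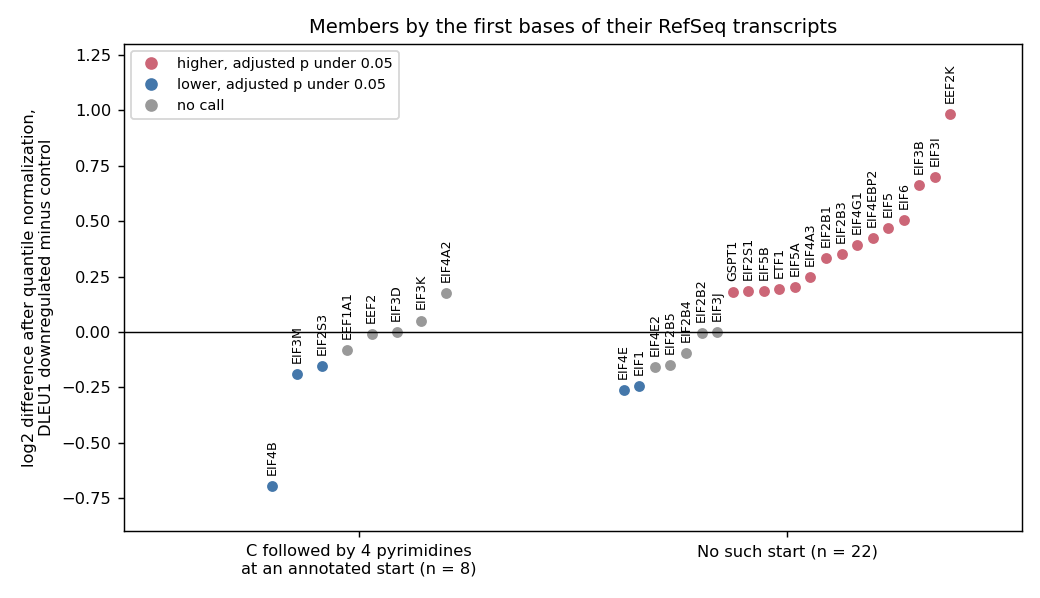
Quantile-normalized log2 difference (DLEU1-downregulated minus control clone) of the 30 measured genes with a RefSeq window, split by whether the annotated start reads C followed by at least 4 pyrimidines. The measured genes without a window, most of them called lower, are not shown. Each point is a gene coloured by its call, and no point among the 8 genes with the pyrimidine start is called higher, against 15 of the 22 others; the EIF4A2 point comes from a probe set near the dim limit and the EEF1A1 and EEF2 points from probe sets near the top of the intensity range.

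CACGTG, the E-box that MYC and MAX bind, was searched in the same windows, which run from 250 bases before to 50 after the start and read alike on both strands for this palindrome. It was found in 7 of the 34 genes with a window (20.6%), against 8.78% of all genes with a window, tested or not. Among tested genes with a window the shares were 23.3% of the 30 members and 12.3% of all 10695. The 7 genes were EIF2B3, EIF3K, EIF4A3, EIF4B, EIF4E, EIF4G1 and EEF2K. All 7 were measured, and 4 were higher and 2 lower after quantile normalization. Of the 23 measured genes with a window but without the motif, 11 were higher and 3 lower. The measured genes without a window, most of them called lower, are in neither count. Over all genes tested, 26.1% of the 1312 with CACGTG were higher and 21.0% lower, against 20.9% and 21.1% of the 9383 without it. The match is a description of the letters and not of binding. EEF2K and EIF4B are shown because they moved in opposite directions and both hold the motif close to the start, at position -59 in EEF2K (chr16:22206158-22206297, plus strand) and position -22 in EIF4B (chr12:53006336-53006475, plus strand). Each run covers 120 bases before and 20 from the start, with CACGTG in capitals.
EEF2K: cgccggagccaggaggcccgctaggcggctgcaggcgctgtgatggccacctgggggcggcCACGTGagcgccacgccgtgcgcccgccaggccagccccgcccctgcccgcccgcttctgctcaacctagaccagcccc
EIF4B: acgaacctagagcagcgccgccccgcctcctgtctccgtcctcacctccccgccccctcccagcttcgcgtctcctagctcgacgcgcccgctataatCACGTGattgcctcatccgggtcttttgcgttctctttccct

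On the brightest probe sets 3 of 7 genes of the eIF2 group were called higher on both scales, against 19.2% of all genes. After quantile normalization 1 was called lower, against 20.6% of all genes. EIF2S1, the alpha subunit whose phosphorylation by stress kinases slows initiation, read 2126 and 2292 in the DLEU1-downregulated clone, against 1637 and 1379 in the control clone. Both arrays of the DLEU1-downregulated clone were above both of the control clone, with a log2 difference of 0.55 as deposited (limma adjusted p = 0.0482). After quantile normalization the difference was 0.18 (adjusted p = 0.0308), a call that held only without replicate 2 of the control clone when 1 array at a time was left out (highest adjusted p 0.225). Another EIF2S1 probe set read 1261 and 1371 in the DLEU1-downregulated clone, against 713 and 592 in the control clone. It was higher on both scales, by 1.00 as deposited and 0.65 once quantile-normalized (limma adjusted p = 4.36e-04 and 1.00e-04). The dimmest EIF2S1 probe set was called on neither scale. EIF2S3 is the gamma subunit that binds GTP and initiator tRNA. Its second brightest probe set was lower after quantile normalization only (-0.37, limma adjusted p = 7.17e-04), and its dimmest passed no test. The brightest read 4193 and 4753 in the DLEU1-downregulated clone and 4233 and 3430 in the control clone. Its groups overlapped as deposited, and it was lower by limma only after quantile normalization (log2 difference -0.15, adjusted p = 0.0200), where it read 3936 and 3982 in the DLEU1-downregulated clone and 4468 and 4339 in the control clone. This call also held only when the array left out was control replicate 2 (highest adjusted p 0.108).

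eIF2B is the 5-subunit exchange factor that reloads eIF2 with GTP. Its alpha subunit EIF2B1 read 1521 and 1765 in the DLEU1-downregulated clone, against 1179 and 882 in the control clone (log2 difference 0.68, limma adjusted p = 0.0186 as deposited; 0.33, adjusted p = 0.00309 after quantile normalization). Its gamma subunit EIF2B3 read 567 and 718 in the DLEU1-downregulated clone, against 411 and 370 in the control clone (0.69, adjusted p = 0.0340 as deposited; 0.35, adjusted p = 0.0172 after quantile normalization). In both genes the groups were separate on both scales. The quantile-normalized call of EIF2B1 held with each array left out, and that of EIF2B3 was lost without control replicate 1 and without replicate 2 of the DLEU1-downregulated clone (highest adjusted p 0.144). The brightest probe sets of the beta, delta and epsilon subunits passed no test: the quantile-normalized differences were -0.0049 for EIF2B2, -0.10 for EIF2B4 and -0.15 for EIF2B5, against 0.36, 0.25 and 0.19 as deposited. A second EIF2B4 probe set, with the suffix _x_at, read 542 and 702 in the DLEU1-downregulated clone, against 446 and 366 in the control clone. It was higher after quantile normalization only (0.59, limma adjusted p = 0.0765 as deposited; 0.25, adjusted p = 0.0465), opposite in sign to the brightest one. Genes near EIF2B1 on chromosome 12 were shifted the same way, with a quantile-normalized median of 0.30 over its 20 nearest tested genes, and the part of this shift in the result was not tested.

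The RNAs of the eIF3 subunits were called in opposite directions only after quantile normalization. As deposited 2 of 11 were higher and 0 lower, against 20.3% and 5.74% of all genes. After quantile normalization 2 were higher and 6 lower, against 20.7% and 20.6% of all genes. In the brightest 10% of all genes these shares were 33.3% and 31.6%. EIF3B, EIF3I and EIF3G form one module of the complex. EIF3B and EIF3I rose on both scales, while EIF3A, EIF3E, EIF3G, EIF3H, EIF3L and EIF3M were called lower after quantile normalization. EIF3B, a scaffold subunit, read 3165 and 3754 in the DLEU1-downregulated clone, against 1835 and 1511 in the control clone. The groups lay far apart, and the mean was 2.07-fold higher in the DLEU1-downregulated clone (log2 difference 1.04, limma adjusted p = 1.09e-05 as deposited; 0.67, adjusted p = 1.74e-05 after quantile normalization). EIF3I, a propeller-shaped subunit that binds EIF3B, read 3952 and 4461 in the DLEU1-downregulated clone, against 2038 and 1931 in the control clone. This was 2.12-fold, again with no overlap (log2 difference 1.08, adjusted p = 2.08e-06 as deposited; 0.70, adjusted p = 8.09e-05 after quantile normalization, both by limma). As deposited, both calls were lost without DLEU1-downregulated replicate 2, where the limma adjusted p was 0.194 for EIF3B and 0.121 for EIF3I. After quantile normalization the lowest difference with 1 array left out was 0.63 for EIF3B and 0.59 for EIF3I, and both stayed past the threshold.

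The subunits called lower were close to equal as deposited. EIF3A, the largest subunit and a platform for the rest, read 3928 and 4427 in the DLEU1-downregulated clone and 4674 and 3890 in the control clone, with overlap between the groups and a log2 difference of -0.03. After quantile normalization it read 3695 and 3686 in the DLEU1-downregulated clone and 4866 and 4816 in the control clone, a log2 difference of -0.39 (limma adjusted p = 1.11e-04). Whether these 6 subunits are called depends on the array scale, and so does the sign of the difference for EIF3G and EIF3M. On the mean of a gene's tested probe sets, as deposited, the differences of EIF3A, EIF3E and EIF3H were positive. Their quantile-normalized differences were -0.14 for EIF3E, -0.19 for EIF3M, -0.30 for EIF3G, -0.34 for EIF3L and -0.36 for EIF3H, against -0.0059, 0.18, 0.06, -0.08 and -0.04 as deposited. The calls of EIF3E and EIF3M after quantile normalization were lost when replicate 1 of either clone was left out (highest adjusted p 0.173 and 0.235). The brightest probe sets of EIF3D, EIF3J and EIF3K passed no test on either scale, with quantile-normalized differences of 0.00073, 0.0012 and 0.05 and deposited differences of 0.37, 0.37 and 0.41.

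Several probe sets of eIF3 genes that were dimmer than the brightest one went against it. They lay above the dim limit of the test, a mean intensity of 11.35. A dimmer EIF3E probe set read 614 and 674 in the DLEU1-downregulated clone, against 273 and 241 in the control clone. It was higher on both scales (log2 difference 0.95 after quantile normalization). A dimmer EIF3H probe set read 616 and 665 in the DLEU1-downregulated clone, against 313 and 320 in the control clone. This one was again higher on both scales (0.64 after quantile normalization). For EIF3M a dimmer probe set read 160 and 181 in the DLEU1-downregulated clone, against 80.2 and 41.4 in the control clone (1.12 after quantile normalization). Of the 5 tested EIF3M probe sets, 2 were called higher on both scales. The brightest and the next brightest, 2 in all, were called lower after quantile normalization. In these genes brighter and dimmer probe sets thus carried opposite calls after quantile normalization. Which transcripts each probe set reads is not given. All 5 tested probe sets of EIF3B, by contrast, had a positive difference, and 3 were called. Of the 4 EIF3K probe sets, the 3 other than the brightest were called higher on both scales, and 2 of these, with the suffix _x_at, had differences of 0.61 (limma adjusted p = 0.00774) and 0.71 (adjusted p = 0.00184) as deposited and 0.23 and 0.34 after quantile normalization.

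**Figure D3:**
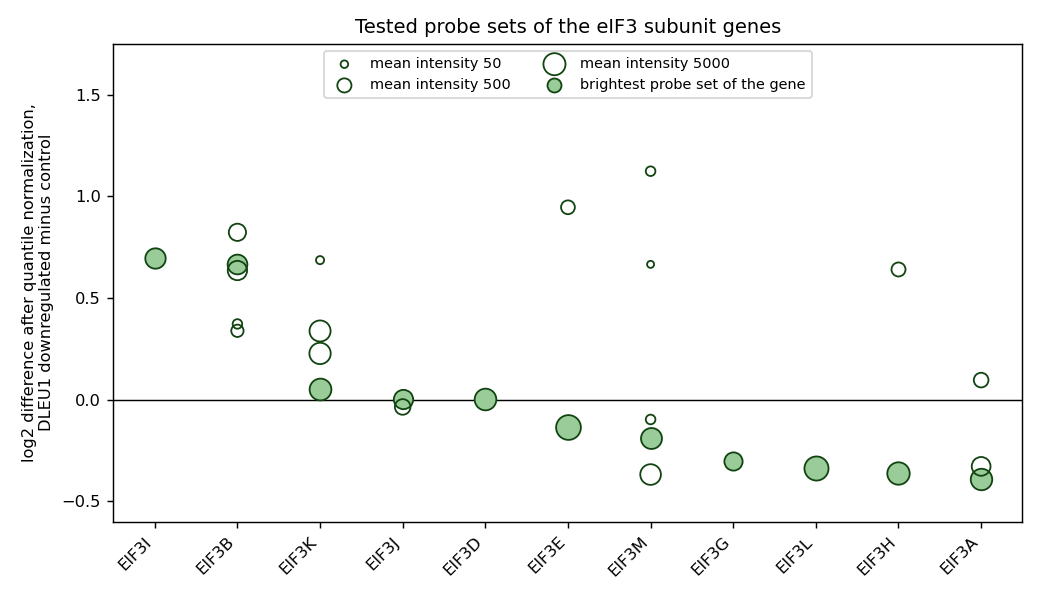
Quantile-normalized log2 difference (DLEU1-downregulated minus control clone) of every tested probe set of the eIF3 subunits, with circle size showing mean intensity and the brightest probe set of each gene filled. EIF3B probe sets all lie above 0, while EIF3E and EIF3H each have a larger circle below 0 and a smaller one above it. EIF3M has several circles on each side of 0, with the largest below it.

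The cap-binding group held the largest difference of all the factors measured. EIF4EBP1, which encodes 4E-BP1, the mTORC1-controlled inhibitor of eIF4E, read 17.6 and 15.6 in the DLEU1-downregulated clone, against 239 and 203 in the control clone. Both arrays of the DLEU1-downregulated clone stood below their array's median intensity, so the mean of 16.6 ± 1.41 there, against 221 ± 25.5 in the control clone (SD, n = 2 arrays each), is a value at the dim end of the array. The log2 difference was -2.86 as deposited (SE 0.253, limma adjusted p = 2.47e-26) and -2.99 after quantile normalization (SE 0.156, adjusted p = 3.50e-06). The size of the difference depends on the pseudocount, at -3.65 with a pseudocount of 1 and -1.82 with 64, while the call held under all the alternatives run and with any single array left out. EIF4EBP1 has 1 probe set, on chromosome 8, and these are bulk values, so fewer cells with the RNA and less RNA per cell cannot be told apart.

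The related inhibitor moved the other way. EIF4EBP2, encoding 4E-BP2, read 847 and 893 in the DLEU1-downregulated clone, against 527 and 474 in the control clone, with no overlap (log2 difference 0.78, limma adjusted p = 0.0115 as deposited; 0.42, adjusted p = 0.00424 after quantile normalization). EIF4G1, the scaffold that both inhibitors displace from eIF4E, read 1070 and 1068 in the DLEU1-downregulated clone, against 679 and 587 in the control clone (0.74, adjusted p = 0.0139 as deposited; 0.39, adjusted p = 0.00792 after quantile normalization). Without replicate 1 of the DLEU1-downregulated clone both quantile-normalized calls were lost (highest adjusted p 0.0528 for EIF4EBP2 and 0.0898 for EIF4G1). EIF4E, the cap-binding protein, read 1558 and 1856 in the DLEU1-downregulated clone and 1810 and 1393 in the control clone, an overlap as deposited. It was lower by limma after quantile normalization alone (-0.26, adjusted p = 0.00630), a call lost without that same array (highest adjusted p 0.0629). Of 4 tested EIF4E probe sets 2 were called lower after quantile normalization, the second at -0.70 (limma adjusted p = 0.00197), and 0 as deposited. Of the 4 tested EIF4EBP2 and the 2 tested EIF4G1 probe sets, only the brightest of each gene was called on either scale. The brightest probe set of the cap-binding homologue EIF4E2, a translational repressor, passed no test (0.21 as deposited, -0.16 with adjusted p = 0.0918 after quantile normalization). A second EIF4E2 probe set, which read 751 and 843 in the DLEU1-downregulated clone and 832 and 633 in the control clone, was lower after quantile normalization only (-0.23, limma adjusted p = 0.0276).

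Among helicases and their partners, EIF4B and EIF4A3 differed in direction. EIF4B, the RNA-binding cofactor of the eIF4A helicase, read 3066 and 3604 in the DLEU1-downregulated clone, against 4492 and 3980 in the control clone. The groups were separate, yet the deposited difference of -0.35 did not pass (limma adjusted p = 0.178), and the quantile-normalized one of -0.70 did (adjusted p = 9.09e-06). A second EIF4B probe set read 1234 and 1471 in the DLEU1-downregulated clone, against 2369 and 1862 in the control clone, and passed on both scales (-0.63, adjusted p = 0.0216 as deposited; -0.998 after quantile normalization). EIF4A3, which belongs to the exon junction complex rather than to eIF4F, read 3074 and 3403 in the DLEU1-downregulated clone, against 2357 and 1859 in the control clone (0.62, adjusted p = 0.0131 as deposited; 0.25, adjusted p = 0.00342 after quantile normalization). EIF4A2 could be read only from a probe set near the dim limit, at 16.3 and 11.9 in the DLEU1-downregulated clone and 12 and 12 in the control clone, which allows no statement about the gene. PABPC1, the poly(A)-binding protein that joins the tail to eIF4G, read 13205 and 14160 in the DLEU1-downregulated clone. It read 13364 and 12737 in the control clone and passed no test (0.07 and 0.01). This probe set carries the suffix _x_at and lies close to the brightest values of the arrays. Whether this limited the difference was not tested. The other PABPC1 probe set, near the dim limit, was called on neither scale (-0.36 and -0.32).

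**Figure D4:**
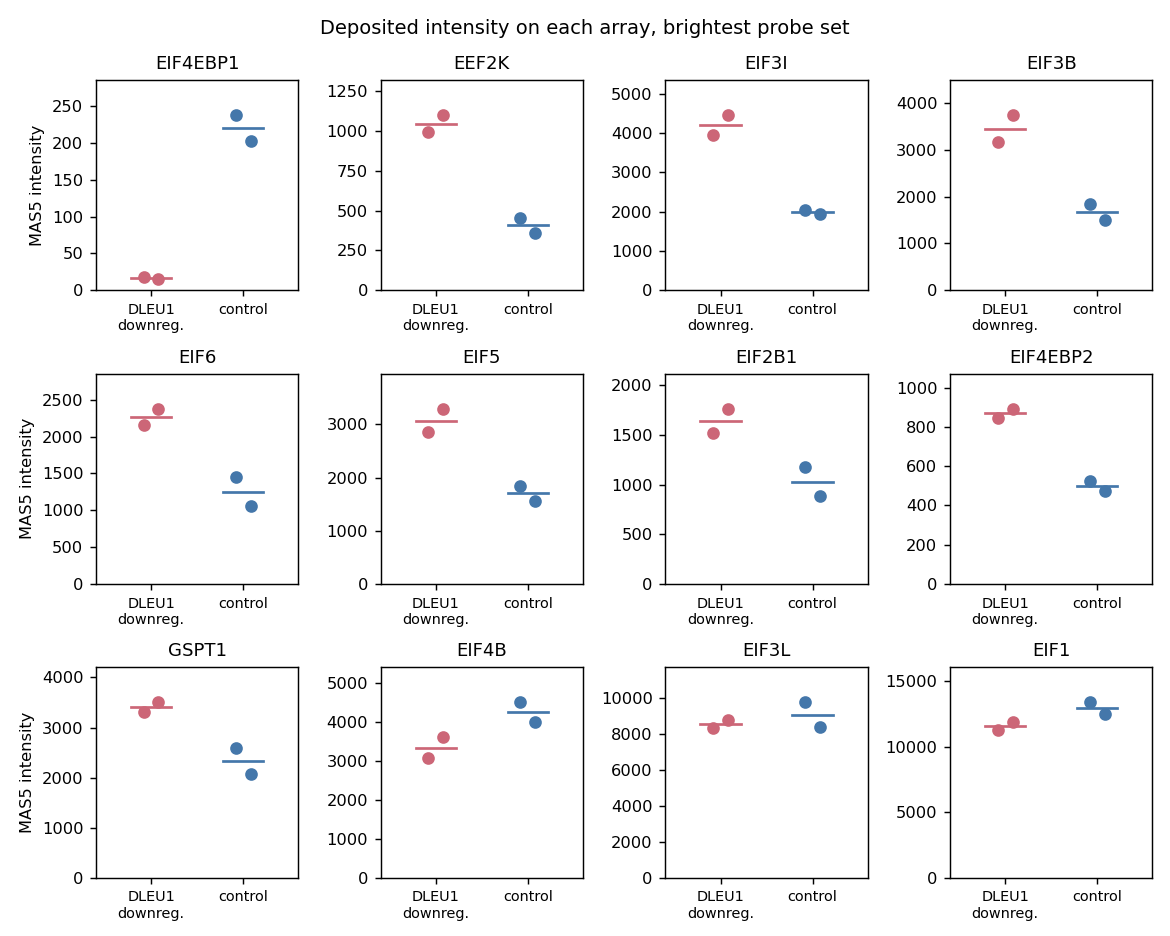
MAS5 intensity as deposited (linear axes from 0, one panel per gene) of 12 translation factors on each array, DLEU1-downregulated clone left of control clone, with dots for arrays and a line at the mean of 2. The EIF4EBP1 dots lie at a mean of 16.6 in the DLEU1-downregulated clone, near the dim end of the arrays, and of 221 in the control clone, the EEF2K, EIF3B and EIF3I dots of the DLEU1-downregulated clone lie above those of the control clone with means 2.57-fold, 2.07-fold and 2.12-fold apart, and the EIF3L dots of the clones overlap.

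Of the 4 genes of start-site selection and subunit joining, 3 were called higher on both scales, against 19.2% of all genes. Among the brightest 10% of all genes 34.4% were called higher as deposited and 33.3% after quantile normalization. A group of 4 genes is too small to be set apart from these shares. EIF5, which triggers GTP hydrolysis by eIF2 once the start codon is found, read 2847 and 3295 in the DLEU1-downregulated clone, against 1850 and 1563 in the control clone. The groups were separate (log2 difference 0.84, limma adjusted p = 6.44e-04 as deposited; 0.47, adjusted p = 1.21e-04 after quantile normalization). EIF6, which keeps the large subunit from joining too early, read 2153 and 2382 in the DLEU1-downregulated clone, against 1448 and 1053 in the control clone (0.87, adjusted p = 9.73e-04 as deposited; 0.51, adjusted p = 3.22e-04 after quantile normalization). EIF5B, the GTPase that joins the subunits, read 3200 and 3507 in the DLEU1-downregulated clone, against 2465 and 2095 in the control clone (0.56, adjusted p = 0.0280 as deposited; 0.18, adjusted p = 0.0172 after quantile normalization). With 1 array left out, its call held only without control replicate 1 as deposited and only without control replicate 2 after quantile normalization (highest adjusted p 0.587 and 0.132).

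EIF1, the guardian of start-codon choice, went the other way on its bright probe sets. It read 11252 and 11888 in the DLEU1-downregulated clone, against 13383 and 12466 in the control clone, with no overlap. The deposited difference of -0.16 did not pass the limma test (adjusted p = 0.461), and the quantile-normalized difference of -0.24 did (adjusted p = 4.43e-04). A dimmer EIF1 probe set read 164 and 184 in the DLEU1-downregulated clone, against 67.5 and 80.2 in the control clone. It was higher on both scales (0.85 after quantile normalization). The 3 further bright EIF1 probe sets, all with the suffix _x_at, were called lower after quantile normalization. The dimmer probe set thus stood against them as well.

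In the elongation group the brightest probe sets of EEF1A1 and EEF2 passed no test, while the kinase that restrains eEF2 rose. EEF2K phosphorylates eEF2 and so slows elongation. It read 993 and 1103 in the DLEU1-downregulated clone, against 452 and 361 in the control clone, a 2.57-fold difference of means (1048 ± 77.7 against 407 ± 64.3, SD, n = 2 arrays each). The groups lay far apart (log2 difference 1.34, SE 0.248, limma adjusted p = 2.83e-06 as deposited; 0.98, SE 0.0691, adjusted p = 1.42e-05 after quantile normalization). As deposited, the EEF2K difference without DLEU1-downregulated replicate 2 was 1.26 with a limma adjusted p of 0.109, and after quantile normalization no difference with 1 array left out was under 0.95. A second EEF2K probe set read 727 and 783 in the DLEU1-downregulated clone, against 166 and 162 in the control clone (2.10 as deposited, 1.79 after quantile normalization).

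EEF2, the translocase itself, read 13371 and 14575 in the DLEU1-downregulated clone and 14787 and 12398 in the control clone. The groups overlapped, and the differences of 0.04 as deposited and -0.0082 after quantile normalization passed no test. EEF1A1, which delivers aminoacyl-tRNA, read 16564 and 17502 in the DLEU1-downregulated clone and 18161 and 17429 in the control clone (-0.06 as deposited; -0.08, limma adjusted p = 0.0599 after quantile normalization). Of its 6 probe sets, 2 others that also carry the suffix _x_at were called lower after quantile normalization (-0.11, adjusted p = 0.0176, and -0.12, adjusted p = 0.0208), and none was called as deposited. The EEF2 and EEF1A1 readings lie close to the brightest values on their arrays. These were 19170 and 20013 in the DLEU1-downregulated clone and 19672 and 19685 in the control clone. Whether this limited the differences was not tested. EIF5A, the hypusine-bearing factor that eases peptide bond formation at difficult sequences, read 10173 and 10718 in the DLEU1-downregulated clone, against 8236 and 7354 in the control clone (0.42, adjusted p = 0.0289 as deposited; 0.20, adjusted p = 0.00204 after quantile normalization). Its deposited call was lost with any of the 4 arrays left out (highest adjusted p 0.524), while its quantile-normalized call was kept each time. EEF1D, a subunit of the exchange factor of eEF1A, read 6475 and 7025 in the DLEU1-downregulated clone, against 5193 and 4451 in the control clone (0.49, adjusted p = 0.0238 as deposited; 0.18, adjusted p = 0.00604 after quantile normalization), and its quantile-normalized call was lost without replicate 1 of the DLEU1-downregulated clone (highest adjusted p 0.0687). Its next brightest probe set read 4882 and 5424 in the DLEU1-downregulated clone, against 4445 and 3771 in the control clone, passed on neither scale and differed in sign after quantile normalization (0.33 as deposited, -0.03 after it).

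Both termination factors were called higher in the DLEU1-downregulated clone on both scales, against 19.2% of all genes. ETF1, the release factor eRF1 that reads all stop codons, read 3429 and 3803 in the DLEU1-downregulated clone, against 2707 and 2200 in the control clone (log2 difference 0.56, limma adjusted p = 0.0237 as deposited; 0.19, adjusted p = 0.00887 after quantile normalization). GSPT1, the GTPase eRF3a that acts with it, read 3303 and 3502 in the DLEU1-downregulated clone, against 2588 and 2072 in the control clone (0.55, adjusted p = 0.0291 as deposited; 0.18, adjusted p = 0.0269 after quantile normalization). The groups were separate in both genes. The quantile-normalized call of ETF1 was lost without replicate 1 of the DLEU1-downregulated clone (highest adjusted p 0.0804), and that of GSPT1 held only without replicate 2 of that clone (highest adjusted p 0.206). The brightest GSPT1 probe set showed the smallest change: all 6 GSPT1 probe sets were called higher after quantile normalization, and one read 876 and 950 in the DLEU1-downregulated clone, against 342 and 312 in the control clone (1.44 as deposited, 1.09 after quantile normalization).

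Some of the larger differences lay where neighbouring genes were shifted the same way. Around EIF3B on chromosome 7, the 20 nearest tested genes had a median quantile-normalized difference of 0.64, close to EIF3B's own 0.67, and 11 were called higher and 0 lower by limma. Over chromosome 7 as a whole the median was 0.31 and 43.7% of genes were called higher. Around EIF4EBP1 on chromosome 8 the median was -0.50, with 0 called higher and 13 lower, against -2.99 for EIF4EBP1 itself. Around EIF6 on chromosome 20 the median was 0.24, against 0.51 for EIF6, and the chromosome's median was 0.29. The neighbours of EEF2K on chromosome 16 and of EIF3I on chromosome 1 had medians of 0.06 and 0.03, against 0.98 for EEF2K and 0.70 for EIF3I themselves. The part of these regional shifts in the members' differences was not tested.

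**Figure D5:**
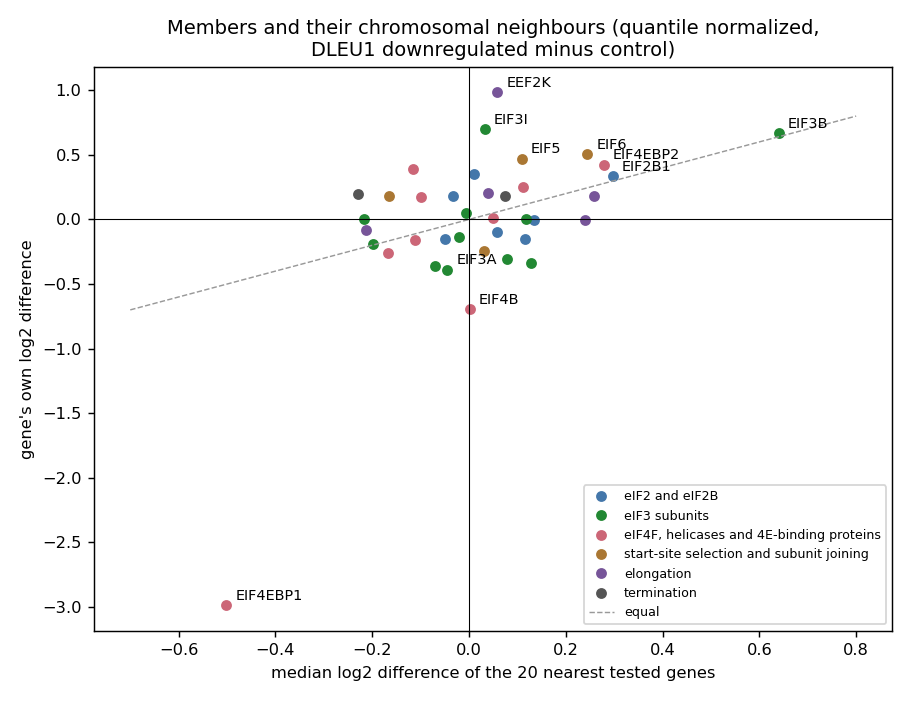
Quantile-normalized log2 difference (DLEU1-downregulated minus control clone) of each measured gene against the median over its 20 nearest tested genes on the same chromosome, with the dashed line marking equal values. EIF3B lies near the line at 0.67 against 0.64, whereas EEF2K and EIF3I lie well above it and EIF4EBP1 well below it.

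Other genes of the pathway were read from 7 lists of 76 genes, of which 68 were tested. As deposited 20 were higher and 1 was lower, against 20.3% and 5.74% of all genes. After quantile normalization 22 were higher and 20 lower, against 20.7% and 20.6% of all genes, and the same shares stand behind the counts of each list below. Their median differences were 0.30 and -0.0049. The kinases and inhibitors that act on eIF4F held 5 of 12 tested genes higher and 0 lower as deposited by limma, against 20.3% and 5.74% of all genes. After quantile normalization 6 were higher and 0 lower, against 20.7% and 20.6%. MKNK2, the kinase MNK2 that phosphorylates eIF4E, read 9449 and 10116 in the DLEU1-downregulated clone, against 4193 and 3263 in the control clone, with no overlap (1.40, limma adjusted p = 2.43e-14 as deposited; 1.08 after quantile normalization). RPS6KA3, the kinase RSK2, had a difference of 1.29 (adjusted p = 9.43e-06), or 0.95 once quantile-normalized. MTOR had 0.86 (adjusted p = 0.00764) and 0.58.

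The poly(A)-binding proteins and their partners held the other large fall. PAIP2B, an inhibitor of poly(A)-binding protein, read 30.8 and 25 in the DLEU1-downregulated clone, against 158 and 182 in the control clone (log2 difference -2.08, limma adjusted p = 6.49e-14 as deposited; -2.23 after quantile normalization). In the same list LARP1, which binds the pyrimidine start described above, was higher (0.59, adjusted p = 0.00911 as deposited; 0.22 after quantile normalization). PABPC1L rose as well (0.68, adjusted p = 0.0289; 0.32). Of the 9 tested genes in this list, 3 were higher and 1 lower as deposited, and 5 higher and 3 lower after quantile normalization.

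Among eIF2 kinases and phosphatase subunits 2 of 7 were higher and 0 lower as deposited by limma, and 2 higher and 3 lower after quantile normalization. The kinases that rose were EIF2AK2, the double-stranded RNA sensor PKR (1.01, adjusted p = 0.00137 as deposited; 0.71 after quantile normalization), and EIF2AK1, the heme-regulated kinase (0.76, adjusted p = 0.00739; 0.41). EIF2AK3, the endoplasmic reticulum kinase PERK, was lower after quantile normalization only (-0.59, adjusted p = 0.0581 as deposited; -0.93, adjusted p = 1.29e-05). Among other initiation factors 3 of 14 were higher and 0 lower as deposited, and 3 were higher and 4 lower after quantile normalization. Those higher as deposited were led by EIF4H, a cofactor of eIF4A (1.01, limma adjusted p = 6.20e-05 as deposited, 0.65 after quantile normalization). They included DENR, which acts in reinitiation (0.56, adjusted p = 0.0264, and 0.19). EIF3C also passed as deposited (0.65, adjusted p = 0.0481; 0.44 with adjusted p = 0.0598 after quantile normalization), but it has a near-identical copy in EIF3CL and the reading is uncertain.

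Of 9 other elongation, termination and rescue factors, 1 was higher and 0 lower as deposited, and 1 was higher and 4 lower after quantile normalization. The higher one on both scales was the ribosome rescue factor PELO (0.71, limma adjusted p = 0.0320 as deposited, 0.41 after quantile normalization). GTPBP2 was lower after quantile normalization only (-0.72, limma adjusted p = 0.00184), and EEFSEC, the selenocysteine elongation factor, passed no test as deposited (0.52). Of 8 enzymes that modify eIF5A or eEF2, 3 were higher and 0 lower as deposited, and 2 were higher and 3 lower after quantile normalization. Higher as deposited was DOHH, which completes hypusine on eIF5A (0.84, limma adjusted p = 0.0128, and 0.81 after quantile normalization). So were DPH7 (0.83, adjusted p = 0.00998, and 0.55) and DNAJC24 (0.66, adjusted p = 0.0494, and 0.33 with adjusted p = 0.0655), which act in diphthamide synthesis on eEF2. Of 9 mitochondrial factors, 3 were higher on both scales, 0 were lower as deposited and 3 were lower after quantile normalization. TUFM, the mitochondrial counterpart of eEF1A, read 4136 and 4626 in the DLEU1-downregulated clone, against 2577 and 2331 in the control clone (0.83, adjusted p = 2.60e-04; 0.45). GFM1 (0.72, adjusted p = 0.00333; 0.34) and TSFM (0.60, adjusted p = 0.0494; 0.25) are the mitochondrial translocase and the exchange factor of TUFM.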

How the data were processed

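RNA from 2 arrays of the DLEU1-downregulated clone and 2 of the control clone had been measured on Affymetrix HG-U133 Plus 2.0 arrays. The deposited table gives 1 linear intensity per probe set and array, made with MAS5 per the submitters' processing notes; the version and target intensity are not given in the sources used here. Depth does not apply to arrays, and the number of arrays limits the precision. Genes were named from the platform annotation: 41091 probe sets have 1 symbol, 1801 several and 11721 none.

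Each value was taken as log2(intensity + 16) as deposited. Control probe sets and the 21845 probe sets with a mean under the 40th percentile were left out. A linear model per probe set was fitted to the other 32768 by limma (version 3.58.1, under R 4.3.3), with moderated variances that follow intensity. As deposited the prior degrees of freedom were infinite, so each variance was that of the intensity trend. After quantile normalization they were 6.757, beside 2 residual degrees of freedom. P-values were adjusted over all 32768 probe sets by Benjamini-Hochberg, with a threshold of 0.05. Differences on this scale understate changes of dim probe sets. The same fit was made after quantile normalization, since the 2% trimmed means showed no common scaling. The fit was tested on simulated data. The members, the lists and the tests were chosen with earlier results of these data known. The text names all members, DLEU1 and, in each list, the up to 3 genes with the smallest p as deposited. The alternatives tried were other pseudocounts, filters, array scalings, probe set rules and thresholds, no intensity trend, a replicate block and each array left out. Replicate numbers did not pair the arrays: the correlation of same-numbered deviations was -0.08, from 2 pairs. Sequences are RefSeq's, from GRCh38.p14, and gene order for neighbours is that of the same assembly.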

Additional observations from a re-analysis of the deposited data

How the results depend on the processing

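Counts below give higher before lower calls of the DLEU1-downregulated clone, by limma. As deposited, 16 and 1 member genes, 40 and 2 member probe sets, 20 and 1 listed pathway genes and 5620 and 1673 of all probe sets were called, and the members' median difference was 0.365. Array scaling moved the lower calls most. Quantile normalization gave 11 lower member genes, 22 lower member probe sets, 20 lower pathway genes and 5485 lower probe sets in all, with a median of 0.00712. A common trimmed mean gave 11, 22, 20 and 6280, with a median of 0.0406. Median centring gave 2 lower member genes, 63 higher member probe sets, 37 and 5 pathway genes and 10420 higher probe sets in all. With no filter on dim probe sets 7 member genes, 26 member probe sets and 9 pathway genes were higher, 1 member probe set was lower, and 3329 and 1066 of all probe sets were called. With no intensity trend 9 member genes were higher and 1 member probe set lower. At a threshold of 0.01, 5 member genes were higher, 24 and 1 member probe sets were called, and 3510 and 972 of all. With probe sets averaged per gene, 2 pathway genes were lower. EIF4EBP1 remained called, and lower, under all settings run. The causes of these shifts were not tested.

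Replicate numbers are shared between the clones, but they did not pair the arrays. With the number as a replicate block, limma called 0 member genes higher (5 at an unadjusted p under 0.05) and 1 lower, 5 and 1 member probe sets, 1 pathway gene higher, and 1252 and 649 of all probe sets, and DLEU1 kept its difference of -1.035 with an adjusted p of 0.162. The block leaves 1 residual degree of freedom. The block after quantile normalization gave 11 lower member genes, 22 lower member probe sets, 21 lower pathway genes and 5527 lower probe sets, with a median of 0.00712, and the members' differences were those of quantile normalization alone.

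With 1 array left out, over both scales, 0 to 15 member genes were higher by limma (0 without replicate 2 of the DLEU1-downregulated clone as deposited, where 3 had an unadjusted p under 0.05) and 1 to 11 were lower. Member probe sets ranged from 3 to 47 higher and 1 to 23 lower, pathway genes from 1 to 24 and 1 to 20, and all probe sets from 554 to 7477 and 480 to 4768. The members' median ranged from 0.00891 to 0.462 and the DLEU1 difference from -1.432 to -0.831.

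No reversal of direction was seen in a gene called as deposited. Under quantile normalization, with or without the block, the difference turned to -0.00486 for EIF2B2, -0.0957 for EIF2B4, -0.151 for EIF2B5, -0.153 for EIF2S3, -0.305 for EIF3G, -0.191 for EIF3M, -0.261 for EIF4E, -0.159 for EIF4E2 and -0.00815 for EEF2. Under a common trimmed mean it turned to -0.0666 for EIF2B4, -0.127 for EIF2B5, -0.0995 for EIF2S3, -0.266 for EIF3G, -0.145 for EIF3M, -0.0442 for EIF4A2, -0.227 for EIF4E, -0.111 for EIF4E2, -0.260 for PABPC1 and -0.284 for EEF2. On the mean of probe sets it turned to 0.154 for EIF3A, 0.635 for EIF3E, 0.469 for EIF3H, -0.0709 for EIF4E, -0.145 for PABPC1, 0.0586 for EEF1A1 and 0.0317 for EIF1. Median centring turned EIF3A to 0.0119 and EIF3E to 0.0381, and leaving out _x_at probe sets turned PABPC1 to -0.357 and EEF1A1 to 0.410. With 1 array left out over both scales the range spanned 0 for EIF2B2 (-0.0846 to 0.529), EIF2B4 (-0.196 to 0.330), EIF2B5 (-0.203 to 0.394), EIF2S3 (-0.171 to 0.379), EIF3A (-0.399 to 0.0997), EIF3D (-0.0110 to 0.487), EIF3E (-0.185 to 0.0916), EIF3G (-0.349 to 0.179), EIF3H (-0.385 to 0.0418), EIF3J (-0.0382 to 0.560), EIF3K (-0.0248 to 0.526), EIF3L (-0.388 to 0.0279), EIF3M (-0.262 to 0.379), EIF4A2 (-0.00516 to 0.279), EIF4E (-0.304 to 0.284), EIF4E2 (-0.189 to 0.378) and EEF2 (-0.0940 to 0.171). The pair of arrays per clone and the single clone per genotype limit all of these results, and probe sets near the dim limit carry little signal over background.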
